A study of Mus musculus with 6 samples.

Results

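The 8 genes described here make the coat and the growth signals of the mouse egg. They are the zona pellucida glycoprotein genes Zp1, Zp2 and Zp3, the oocyte transcription factor genes Figla and Nobox, the oocyte growth factor genes Gdf9 and Bmp15, and Oosp1, which encodes a protein secreted by oocytes. The genes were taken by name from the array's annotation, and the rule then took, for each, the row listing that gene alone with the highest mean over all 6 arrays. Each of the 8 had exactly 1 such row, among 19938 named genes in the table, so the rule's choice by signal never came into play. The genes were chosen with earlier results of these data known, Zp3 among them, so the Zp3 difference is not independent evidence about egg genes.

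The zona pellucida is the glycoprotein coat around the egg. In the mouse it is built from filaments of ZP2 and ZP3 that ZP1 cross-links, and the coat binds sperm at fertilisation. FIGLA, a basic helix-loop-helix factor, binds E-box motifs in the zona gene promoters and is needed for their expression in oocytes, while the homeodomain factor NOBOX acts on oocyte genes such as Gdf9. GDF9 and BMP15 are TGF-beta family ligands through which the oocyte signals to the granulosa cells around it. Embryonic stem cells are not oocytes, and these genes are known chiefly for their expression in the ovary.

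The arrays compared 3 samples of Tdg knockdown E14 cells with 3 samples of control E14 cells. E14 is a mouse embryonic stem cell line, and Tdg encodes thymine DNA glycosylase, a repair enzyme that excises oxidised forms of methylated cytosine. Both groups were grown on plates coated with 0.1% gelatin, in medium that held 15% serum and 1000 units/ml of LIF, and the labels describe lentiviral infection at a multiplicity of 10 followed after 48 h by puromycin at 2 ug/ml. The labels do not describe the vector of the control cells or the knockdown sequence, and they do not say whether replicates were separate cultures. The p-values therefore cover the spread among these 6 samples and no more, and that spread could be technical.

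The targeted gene had less signal in every knockdown sample. The mean of the 4 rows shared by Tdg and its pseudogene Tdg-ps2 was 8.24, 8.16 and 7.93 in the knockdown samples, against 11.12, 11.20 and 11.10 in the control samples (log2 signal), which leaves 12.2% of the control signal. The 15 embryonic stem cell markers, such as Pou5f1, Sox2 and Nanog, averaged 11.83 to 11.91 on the knockdown arrays and 11.85 to 11.88 on the control arrays. Knockdown replicate 3 stood apart from the other arrays on the first principal component, at 31.0 against -17.5 to 5.17. The differences of the 8 genes and the list medians are given with and without it.

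Zp3 was the 1 gene of the 8 that passed the test, and it rose. Its log2 signal was 9.00, 9.18 and 8.84 in knockdown cells, against 8.17, 8.25 and 8.23 in control cells. Every knockdown sample lay above every control sample, as was the case for 7.98% of all named genes. The gap between the groups was wider than the spread within either. The mean was 9.01 ± 0.17 in knockdown cells and 8.22 ± 0.04 in control cells (SD, n = 3 each), a difference of 0.79 on the log2 scale (SE 0.09, 95% interval 0.57 to 1.01), or 1.73-fold higher. In the limma fit over all named genes the adjusted p was 0.0262, and in the exact two-sided permutation test of Zp3 by itself p was 0.1, the smallest that 3 samples against 3 allow. By sample number, the knockdown sample exceeded the control sample of the same number by 0.83, 0.93 and 0.61. ZP3 is the glycoprotein long studied as a sperm receptor of the mouse egg.

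Of the 8 genes 1 was called higher and none lower, where 0.241% of all named genes were called higher and 0.552% lower (limma, adjusted p under 0.05). Over all named genes 0 were called higher and 0 lower without knockdown replicate 1, and likewise without control replicate 1. Without knockdown replicate 2 the counts were 0 and 4, and without knockdown replicate 3 they were 131 and 159. The Zp3 call too depended on which arrays were kept. With knockdown replicate 3 left out it held (difference 0.87, adjusted p 0.00806). It was lost with any of the other arrays left out, at adjusted p 0.146 without knockdown replicate 1, 0.073 without knockdown replicate 2, 0.147 without control replicate 1, 0.172 without control replicate 2 and 0.123 without control replicate 3, while the difference stayed between 0.70 and 0.81 in those fits.

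**Figure D1:**
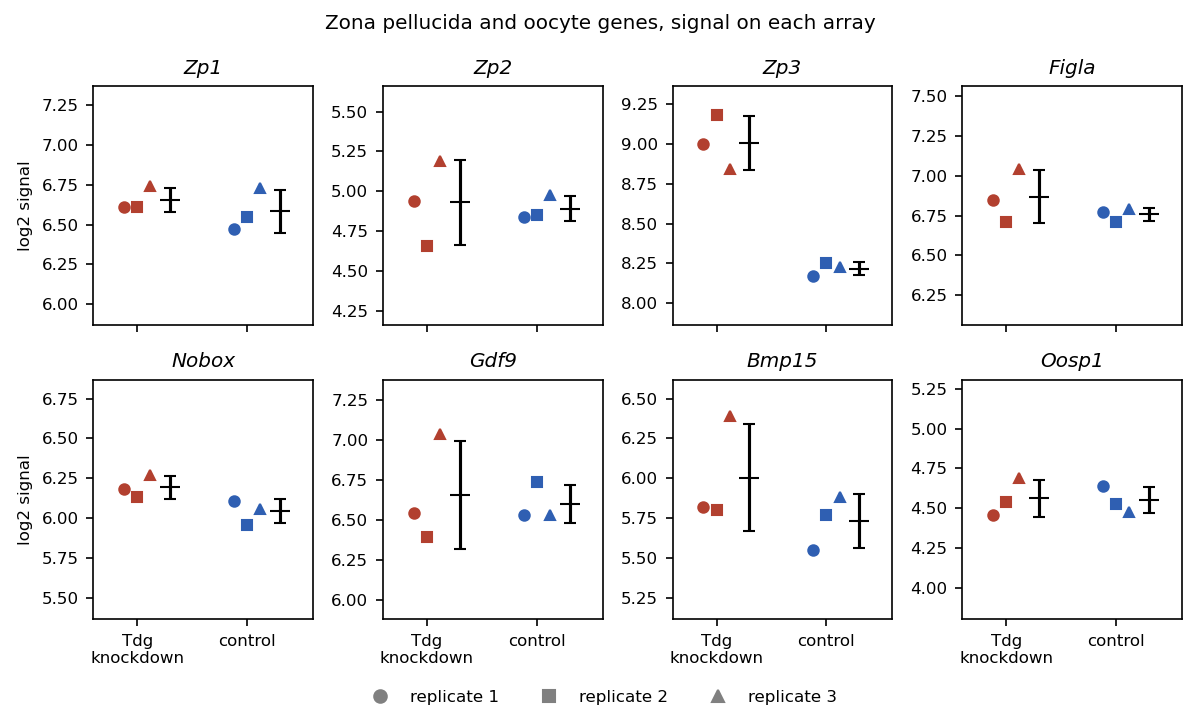
Log2 signal of the 8 genes on each array, with Tdg knockdown samples left of control samples and a marker shape for each replicate number; the bars give the mean and SD of 3 samples, and every panel spans the same height. The Zp3 groups are apart, at 8.84 to 9.18 in knockdown and 8.17 to 8.25 in control samples, while in the other 7 genes the highest point is that of knockdown replicate 3.

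The other zona genes did not pass the threshold. Zp1, whose product cross-links the coat filaments, had 6.61, 6.61 and 6.74 in knockdown cells, against 6.47, 6.55 and 6.73 in control cells, a difference of 0.07 (SE 0.09, 95% interval -0.13 to 0.27, adjusted p 0.808). Its groups overlapped. Zp2, whose product is cut after fertilisation so that further sperm no longer bind, had 4.94, 4.66 and 5.19 in knockdown cells, against 4.84, 4.85 and 4.98 in control cells, a difference of 0.04 (SE 0.13, 95% interval -0.27 to 0.35, adjusted p 0.932). Knockdown samples of Zp2 lay on both sides of all 3 controls. The upper ends of both intervals, 0.27 and 0.35, lay below the lower end of the Zp3 interval at 0.57. The Bmp15 interval, given below, reached 0.67 and overlapped that of Zp3. All Zp1 and Zp2 values lay below the array medians of 7.41 to 7.48. Whether rows this dim could show such a rise was not tested.

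The transcription factor genes did not pass the threshold. Figla had 6.85, 6.71 and 7.04 in knockdown cells, against 6.77, 6.71 and 6.79 in control cells, and the difference was 0.11 (SE 0.09, 95% interval -0.11 to 0.33, adjusted p 0.716). The lowest knockdown sample equalled the lowest control. Nobox had 6.18, 6.13 and 6.27 in knockdown cells, against 6.11, 5.96 and 6.06 in control cells, and the difference was 0.15 (SE 0.07, 95% interval -0.02 to 0.32, adjusted p 0.458). Its knockdown samples all lay above its controls, by a margin of 0.02 between the nearest pair, as did those of 7.98% of all named genes.

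The secreted factor genes did not pass the threshold either. Gdf9 had 6.54, 6.39 and 7.04 in knockdown cells, against 6.53, 6.74 and 6.53 in control cells, a difference of 0.06 (SE 0.17, 95% interval -0.33 to 0.45, adjusted p 0.921). Bmp15 had 5.82, 5.80 and 6.39 in knockdown cells, against 5.55, 5.77 and 5.88 in control cells, a difference of 0.27 (SE 0.17, 95% interval -0.13 to 0.67, adjusted p 0.611), or 0.08 without knockdown replicate 3. In both genes knockdown replicate 3 was well above the other knockdown samples, and the SDs within the knockdown group, 0.34 for Gdf9 and 0.34 for Bmp15, exceeded those within the control group, 0.12 and 0.17. Oosp1 had 4.46, 4.54 and 4.69 in knockdown cells, against 4.64, 4.53 and 4.48 in control cells, a difference of 0.01 (SE 0.08, 95% interval -0.18 to 0.21, adjusted p 0.968). Its groups overlapped almost completely.

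**Figure D2:**
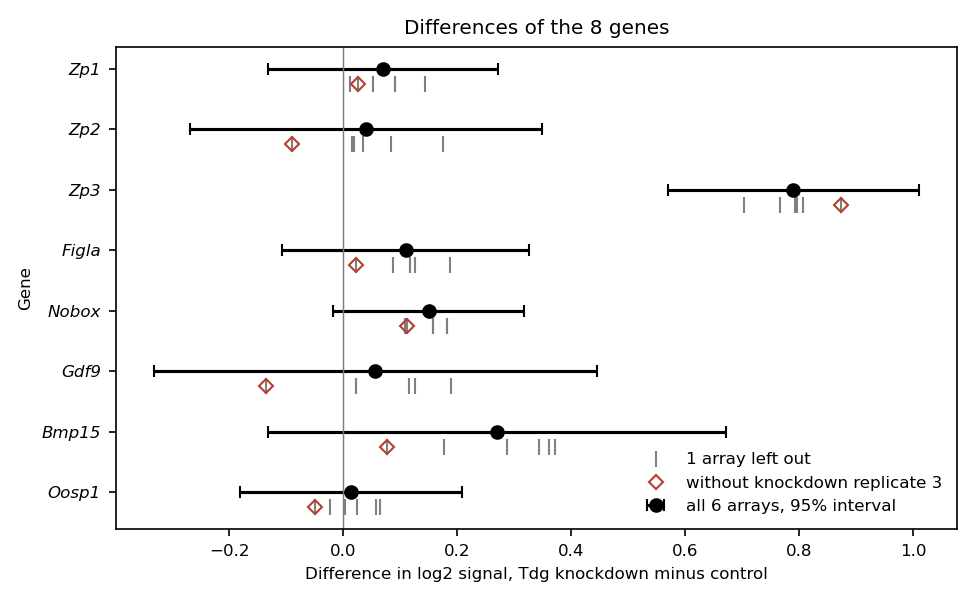
Difference in log2 signal, Tdg knockdown minus control, for each of the 8 genes: points and bars give the limma estimate from all 6 arrays with its 95% interval, grey ticks the estimates with 1 array left out, and open diamonds the estimate without knockdown replicate 3. The Zp3 interval, 0.57 to 1.01, is the 1 interval that lies wholly above 0.

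The 7 genes other than Zp3 had their highest signal in knockdown replicate 3. In all 7 that array exceeded the mean of knockdown replicates 1 and 2 by 0.12 to 0.58 (median 0.26). Across all named genes knockdown replicate 3 was the highest array for 34.1%, and across 1027 olfactory receptor genes, a group of genes that stem cells mostly do not express, for 60.5%. The same excess had a median of 0.20 over the olfactory receptor genes and 0.01 over all named genes. Zp3 went the other way, with knockdown replicate 3 lying 0.25 below the mean of the other knockdown samples (difference -0.25).

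All 8 differences were above 0, as were those of 56.4% of named genes and 78.7% of olfactory receptor genes. The median difference of the 7 genes was 0.07, against 0.08 for the olfactory receptor genes and 0.02 for all named genes. Without knockdown replicate 3 these medians were 0.02, 0.00 and -0.01, and 5 of the 8 genes remained above 0. Bmp15 then stood at 0.08, Figla at 0.02, Zp1 at 0.03 and Nobox at 0.11, while Zp2, Gdf9 and Oosp1 stood at -0.09, -0.14 and -0.05. What sets the dim signals of knockdown replicate 3 apart was not tested.

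**Figure D3:**
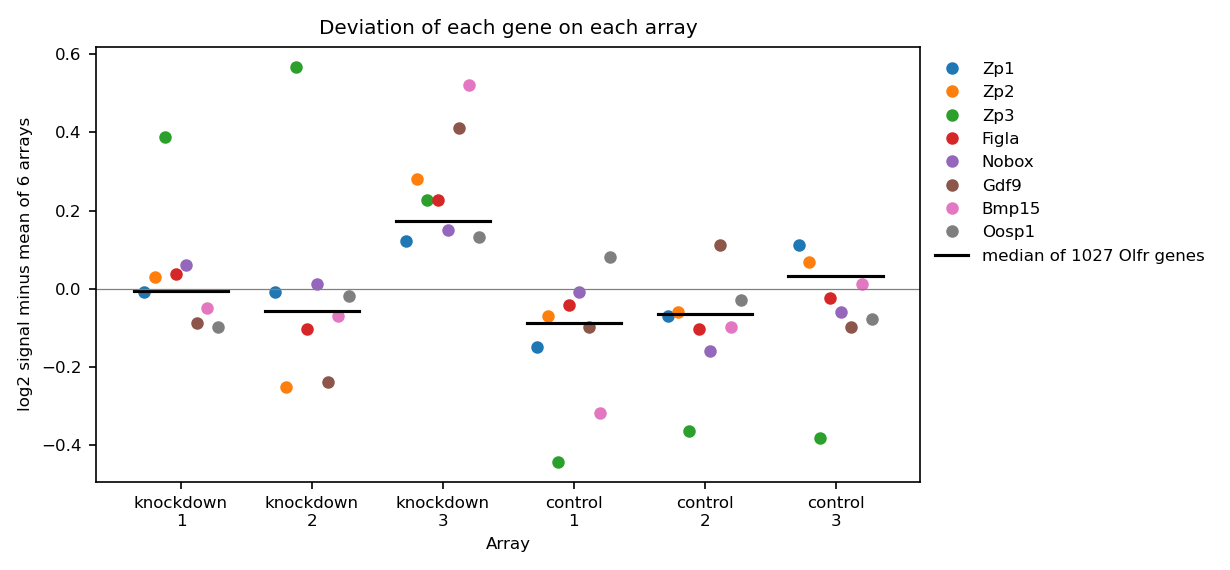
Log2 signal of each gene on each array minus that gene's mean over the 6 arrays, with black lines at the median deviation of 1027 olfactory receptor genes. On knockdown replicate 3 all 8 genes lie above 0 and the olfactory receptor median is 0.18, while the Zp3 points lie above 0 on every knockdown array and below 0 on every control array.

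Whether the genes were expressed at all could not be read from these values, since no detection call was used here and rows of different genes differ in brightness. For scale, the mean signals of the olfactory receptor rows ran from 3.24 at the 5th percentile to 6.63 at the 95th, with a median of 4.71. The control means were 6.58 for Zp1, 4.89 for Zp2, 6.76 for Figla, 6.04 for Nobox, 6.60 for Gdf9, 5.73 for Bmp15 and 4.55 for Oosp1, and that of Zp3 was 8.22. All values of the 7 genes other than Zp3 lay between 4.46 and 7.04, below the array medians of 7.41 to 7.48. In bulk samples, fewer cells carrying a transcript and less transcript per cell cannot be told apart.

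The promoters were compared for sequence features that the choice of genes did not use. RefSeq promoters on GRCm38.p6 were matched by gene identifier for 5 of the 8 genes, Zp3, Figla, Nobox, Bmp15 and Oosp1, and the 250 bases before the start were read. The 3 shown are those of Zp3, the gene that changed, and of Nobox and Bmp15, which had the largest differences among the other genes with a matched promoter. They lie at chr5:135979855-135980104 on the + strand, chr6:43309555-43309804 on the - strand and chrX:6320725-6320974 on the - strand, and capitals mark the E-box letters CANNTG, which read the same on both strands.
Zp3: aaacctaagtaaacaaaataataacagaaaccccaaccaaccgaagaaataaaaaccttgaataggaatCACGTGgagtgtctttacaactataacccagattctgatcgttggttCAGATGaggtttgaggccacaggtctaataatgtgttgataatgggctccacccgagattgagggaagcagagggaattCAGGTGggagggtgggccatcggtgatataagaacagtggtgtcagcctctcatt
Nobox: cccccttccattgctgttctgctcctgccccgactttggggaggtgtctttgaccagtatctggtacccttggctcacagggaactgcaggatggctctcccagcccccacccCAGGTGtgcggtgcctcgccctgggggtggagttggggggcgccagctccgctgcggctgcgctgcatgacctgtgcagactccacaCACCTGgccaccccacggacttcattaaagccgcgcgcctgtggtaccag
Bmp15: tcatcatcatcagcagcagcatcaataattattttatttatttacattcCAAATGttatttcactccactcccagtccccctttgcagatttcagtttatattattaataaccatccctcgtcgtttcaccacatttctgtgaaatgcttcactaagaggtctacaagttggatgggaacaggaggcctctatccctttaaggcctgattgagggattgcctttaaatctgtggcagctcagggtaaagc

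The Zp3 window held 3 E-box matches, which begin at positions -181, -134 and -55, counting the last base before the start as -1. Nobox held 2, Figla 2, Oosp1 5 and Bmp15 1. Of 32851 promoters of this length, 66.2% held at least 1 match, 12.2% held 3 or more, and the median was 1. The homeodomain letters TAATTG or TAATTA, sought on both strands, had 1 match, in Bmp15, and were present in 11.3% of all promoters. CpG dinucleotides, where most cytosine methylation of the mouse genome lies, numbered 5 in Zp3, 11 in Nobox, 14 in Figla, 4 in Oosp1 and 2 in Bmp15, against a median of 6 over all promoters. Of all promoters, 49.6% had as few CpGs as Zp3 or fewer, and the GC content of the Zp3 window was 43.6%, against a median of 52.4%. Methylation was not part of these data.

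The genes beside Zp3 on chromosome 5 were measured too. In order they are Ywhag, a 14-3-3 protein gene, and Ssc4d, a scavenger receptor gene, on one side, and Dtx2, a Deltex ubiquitin ligase gene, and Upk3b, a uroplakin gene, on the other. Dtx2 had 9.39, 9.51 and 9.45 in knockdown cells, against 9.35, 9.40 and 9.41 in control cells, a difference of 0.06 (adjusted p 0.761). Ssc4d had 7.88, 8.15 and 8.51 in knockdown cells, against 7.82, 7.91 and 8.14 in control cells, a difference of 0.22 (SE 0.16, adjusted p 0.671). Upk3b differed by 0.23 (SE 0.08, adjusted p 0.322) and Ywhag by 0.03 (adjusted p 0.872). The Upk3b knockdown samples all lay above its controls, as did those of 7.98% of all named genes. None of these neighbours passed the threshold. The 95% intervals of Ywhag, Dtx2 and Upk3b ended at 0.18, 0.21 and 0.43, below the Zp3 interval, while that of Ssc4d ended at 0.61 and overlapped it.

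**Figure D4:**
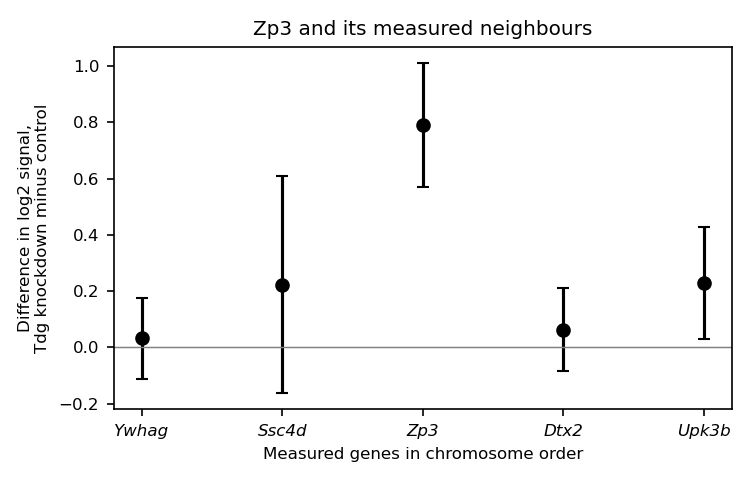
Difference in log2 signal, Tdg knockdown minus control, for Zp3 and the measured genes on either side of it in chromosome order, with 95% intervals from the limma fit. Zp3 stands at 0.79, and its neighbours at 0.03 to 0.23.

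The 14 measured genes beside the other 7 did not pass either, with differences of -0.19 for Tmem159 beside Zp2 to 0.18 for Cntnap2 beside Nobox. Oosp2 and Oosp3, which flank Oosp1 and belong to its family, had differences of -0.03 (SE 0.15) and 0.13 (SE 0.13). Across the 6 arrays Oosp2 and Oosp3, like Oosp1, gave dim signals, with control means of 4.40 and 4.70.

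The pattern of Zp3 over the 6 arrays was compared with those of the named genes, leaving out predicted models, clone-named genes and small RNA genes. Most like it were Crmp1, a neuronal collapsin response mediator, Rxrg, a retinoid X receptor, the eye and neural factor Pax6, the chaperone Hsph1 and the adhesion molecule Ncam1. Their Pearson r was 0.998 to 0.999 (n = 6 arrays, which share the difference between groups). Of these, Crmp1, Hsph1 and Ncam1 did not pass the threshold (limma adjusted p 0.0845, 0.0655 and 0.0577). Pax6 had 9.00, 9.20 and 8.87 in knockdown cells, against 8.02, 8.15 and 8.10 in control cells. Its knockdown samples stood in the same order as those of Zp3, which its choice for likeness to Zp3 favours. Rxrg had 7.81, 7.93 and 7.69 in knockdown cells, against 7.23, 7.29 and 7.31 in control cells (difference 0.53, adjusted p 0.0379). The most opposed were Grin2d, Piezo2, Zfp938, Trim68 and Sptb, at r of -0.988 to -0.997. Of these only Piezo2 passed the threshold (difference -0.62, limma adjusted p 0.0156), and Grin2d differed by -0.07 (adjusted p 0.7). Among the 8 genes, the r of Zp3 with the others ran from -0.10 with Zp2 to 0.63 with Nobox, whereas Figla had 0.90 with Zp2, 0.85 with Bmp15 and 0.82 with Nobox over the same 6 arrays. These Figla pairs share the high signals of knockdown replicate 3.

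Other oocyte genes were read from lists chosen by function. The 12 measured genes of the egg coat and egg surface, the 3 zona genes included, had Zp3 as their 1 higher and no lower member, with a median difference of 0.02, against 0.02 for all named genes (-0.06 and -0.01 without knockdown replicate 3). Of all named genes 0.241% were called higher and 0.552% lower. Astl, the egg protease that cuts ZP2, differed by 0.12 (SE 0.14, adjusted p 0.796), and Izumo1r, the egg receptor JUNO for sperm, by 0.03 (SE 0.16, adjusted p 0.961), both named after their values were seen. Of 12 oocyte transcription factor genes none passed, with a median of 0.06, or -0.02 without knockdown replicate 3. The smallest p among them were those of Lhx9 (0.27, SE 0.11, adjusted p 0.365) and Sohlh2, a helix-loop-helix factor of early oocytes (0.18, SE 0.07, adjusted p 0.374).

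Of the 20 maternal-effect and subcortical complex genes 1 was called lower and none higher, where 0.552% and 0.241% of all named genes were. Their median was 0.03, or 0.04 without knockdown replicate 3, and 12 of the 20 differences were above 0. Khdc3, a subunit of the subcortical maternal complex that oocytes and embryonic stem cells both express, had 8.35, 8.47 and 8.38 in knockdown cells, against 8.83, 8.86 and 8.89 in control cells, a difference of -0.46 (SE 0.06, adjusted p 0.0331). Its groups were far apart relative to their spread. Of the 17 genes of oocyte RNA storage and translation none was called (median -0.01, or 0.02 without knockdown replicate 3), with Ybx2, an RNA-binding protein of germ cells, at -0.28 (SE 0.07, adjusted p 0.138) and the deadenylase gene Cnot6l at -0.30 (SE 0.10, adjusted p 0.288). Likewise none of the 25 oocyte NLRP and multicopy genes was called (median 0.05, or 0.00 without knockdown replicate 3), with Oas1c at -0.31 (adjusted p 0.19) and Nlrp4e at -0.25 (adjusted p 0.369). Members of multicopy families can share signal.

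In the ovary GDF9 and BMP15 act on cumulus and granulosa cells through receptors and SMAD proteins that many cell types share. None of the 17 receptor and effector genes passed. Their median was -0.11, or -0.06 without knockdown replicate 3, and 3 of the 17 differences were above 0, with Smad3, an intracellular effector, at -0.30 (SE 0.06, adjusted p 0.0963) and Furin, a protease that matures the ligands, at -0.29 (SE 0.07, adjusted p 0.131). The groups of 6 of these 17 genes did not overlap and lay lower in knockdown cells, where 11% of all named genes did so.

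Has2, the hyaluronan synthase that builds the cumulus matrix in response to GDF9, had 7.77, 7.88 and 7.51 in knockdown cells, against 8.63, 8.66 and 8.65 in control cells, a difference of -0.93 (SE 0.10, adjusted p 0.0173). It was the 1 gene called of 12 cumulus expansion genes, where 0.552% of all named genes were called lower. The median of the 12 was 0.08, or 0.02 without knockdown replicate 3. Among 15 genes of oocyte growth and follicle signals (median 0.03, or -0.02 without knockdown replicate 3) Bmp7, a BMP ligand, fell, with 8.39, 8.60 and 8.54 in knockdown cells, against 9.03, 8.99 and 9.07 in control cells (difference -0.52, SE 0.07, adjusted p 0.036). It was the 1 gene called of the 15, against the same 0.552% of all named genes. With the replicate number as a block, a fit in which 1.07% of all named genes were called higher and 2.01% lower, Gja1, a gap junction protein, was also called lower (-0.36, adjusted p 0.061, blocked 0.0364) and Lif, the self-renewal cytokine, higher (0.30, adjusted p 0.172, blocked 0.0441), both named after their values were seen.

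Proteins that meet the zona from the sperm side, and proteins of other tissues that carry a ZP domain, were read as further lists. Of 10 sperm zona-binding and fusion genes 1 was called lower and none higher, where 0.552% and 0.241% of all named genes were. Their median was 0.04, or -0.02 without knockdown replicate 3. Izumo1, the sperm ligand of JUNO, had 6.45, 6.44 and 6.38 in knockdown cells, against 6.83, 6.81 and 6.87 in control cells (difference -0.41, SE 0.06, adjusted p 0.036). These signals lay below the array medians of 7.41 to 7.48 and near the 95th percentile of the olfactory receptor rows, 6.63. Whether Izumo1 was expressed could not be read from them. None of 12 genes for ZP-domain proteins of other tissues passed (median 0.09, or 0.00 without knockdown replicate 3), with Cuzd1 at 0.27 (adjusted p 0.309) and Oit3 at 0.16 (adjusted p 0.682).

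**Figure D5:**
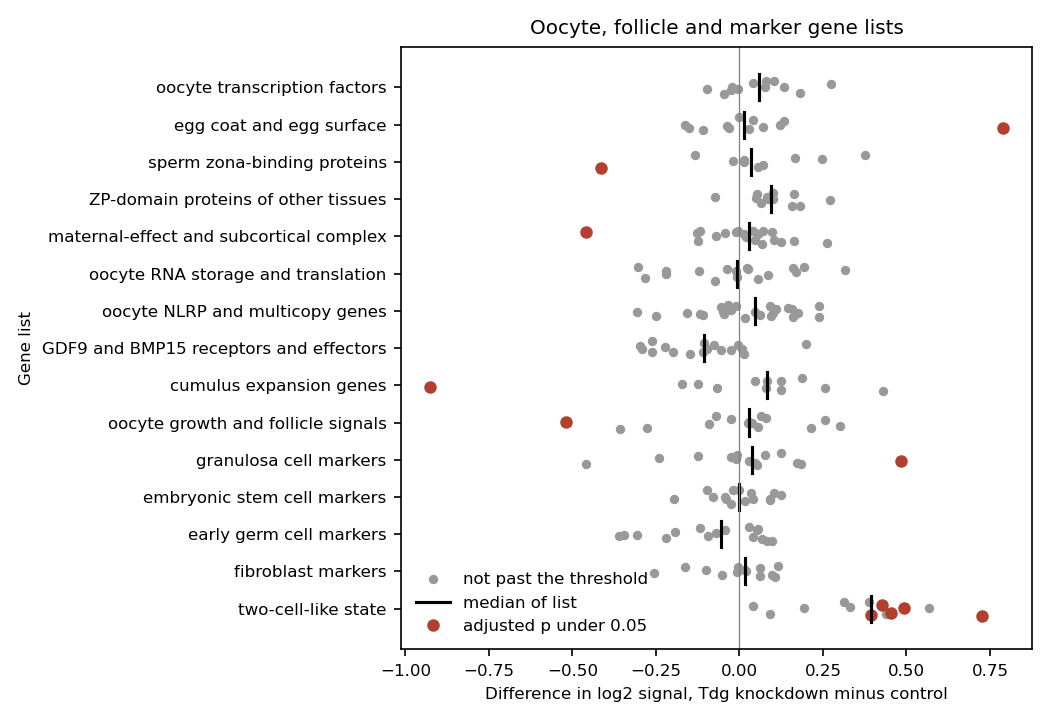
Difference in log2 signal, Tdg knockdown minus control, for each measured gene of 15 lists of oocyte, follicle and marker genes; red points passed an adjusted p of 0.05, grey points did not, and black lines give list medians. Zp3 is the red point at 0.79 in the egg coat list and Has2 the one at -0.93 in the cumulus list, while the 2-cell-like list has a median of 0.39.

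Markers of other cell states were read beside Zp3. None of 16 early germ cell markers passed (median -0.06, or -0.04 without knockdown replicate 3; list mean 8.92 to 9.10 on knockdown and 9.06 to 9.13 on control arrays), with the cohesin gene Rec8 at -0.35 (adjusted p 0.11, blocked 0.0423) and Sycp3 at -0.36 (adjusted p 0.27). Of 14 granulosa cell markers (median 0.04, or -0.06 without knockdown replicate 3; list mean 7.64, 7.66 and 7.83 on knockdown and 7.60 to 7.78 on control arrays) Inhbb, an inhibin and activin subunit gene, rose by 0.48 (SE 0.07, adjusted p 0.0391). It was the 1 gene called of the 14, where 0.241% of all named genes were called higher. With the block Inhba, another subunit gene, was lower (-0.46, adjusted p 0.123, blocked 0.0261), named after its values were seen. The granulosa regulator Foxl2 differed by 0.08 and the hormone gene Amh by 0.05, both defining markers that were named after their values were seen. None of 15 embryonic stem cell markers passed (median 0.00, or 0.02 without knockdown replicate 3), with Tbx3 at -0.20 (adjusted p 0.232) and Klf2 at 0.12 (adjusted p 0.489), and none of 13 fibroblast markers did (median 0.02, or -0.10 without knockdown replicate 3; list mean 7.24, 7.22 and 7.46 on knockdown and 7.24 to 7.39 on control arrays), with Pdgfrb at -0.26 (adjusted p 0.143) and Acta2 at -0.16 (adjusted p 0.346).

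The 2-cell-like state is one in which stem cells carry transcripts of the cleaving embryo. Of 23 genes listed for that state 13 were measured, and Zscan4c, Zscan4d, Zscan4f, Tcstv1 and Duxf3 were not among them. Of the 13 measured genes 5 were called higher, where 0.241% of all named genes were. The other 8 did not pass and none was lower, with a median of 0.39, or 0.44 without knockdown replicate 3. The count was 9 with the replicate block, a fit that called 1.07% of all named genes higher. It was 1 with median centring, where 29 named genes were called higher, and 2 without both arrays numbered 3. With all rows tested it was 0, in a fit that called 2 named genes higher. The list mean was 9.20 to 9.41 on knockdown arrays against 8.90 to 9.01 on control arrays. Among the 5 called genes were Tdpoz3 (0.73, adjusted p 0.0318), Usp17lb (0.49, adjusted p 0.0402), Ubtfl1 (0.45, adjusted p 0.0482) and Usp17lc (0.43, adjusted p 0.0336), of which the Tdpoz and Usp17l families hold near-identical copies that can share signal. The part of this cell state in the Zp3 difference was not tested.

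The calls outside the 8 genes depended on which arrays were kept too. Without knockdown replicate 1 or control replicate 1, 0 of all named genes were called higher and 0 lower. The calls of Khdc3, Has2, Bmp7, Izumo1, Inhbb, Tdpoz3, Usp17lb, Ubtfl1 and Usp17lc each held without knockdown replicate 3 and were lost without any of the other 5 arrays, at adjusted p from 0.0589 for Has2 to 0.232 for Ubtfl1. Without both arrays numbered 3 the calls of Has2, Tdpoz3 and Zp3 held, while those of Khdc3, Izumo1, Bmp7, Inhbb, Usp17lb, Ubtfl1 and Usp17lc were lost, at adjusted p from 0.0606 for Inhbb to 0.0755 for Bmp7. With each array centred on its median, the calls of Khdc3 (adjusted p 0.0524), Izumo1 (0.0567), Inhbb (0.0568), Usp17lb (0.0609), Ubtfl1 (0.0694) and Usp17lc (0.0579) were lost. Izumo1 also missed the threshold with the trended and robust prior (0.0636) and Bmp7 with quantile normalization (0.0562), and with all rows tested none of these genes passed, at adjusted p from 0.0927 to 0.135. Their directions stayed the same in the fits with 1 array left out, with Has2 between -0.82 and -1.01, Khdc3 between -0.43 and -0.50, and Bmp7 between -0.46 and -0.57.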

How the data were processed

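Total RNA of 6 samples was biotin-labelled and hybridised to Affymetrix arrays, per the labels' protocols. The authors deposited log2 signals, 1 per row and array, which the submitters' processing notes credit to Affymetrix Expression Console. The log2 scale was read from the range of 2.26 to 14.03. Neither version, summarisation, background step nor normalization is given in the sources used here. The extraction protocol names Kdm2b knockdown cells, while titles and design name Tdg.

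Of 35557 rows, 21789 list 1 gene, and 21698 of these matched the RefSeq table of GRCm38.p6 by gene identifier. Keeping each gene's brightest row left 19938 genes. Knockdown was compared with control by limma 3.58.1 in R 4.3.3, two-sided, with Benjamini-Hochberg adjustment over all named genes and a threshold of 0.05. The method was first tested on simulated data with independent noise for each gene. That simulation held no array effect, outlying array or paired samples, so it does not cover those features of these arrays. No normalization, filter or block was added.

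The members and lists were chosen with earlier results of these data known. Named genes are the members, Tdg, measured neighbours, the 5 genes most and the 5 least like Zp3, and from each list up to 4 called genes a direction or, with none called, the 2 of smallest p. Genes beyond that are said to be named after their values were seen.

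Deviations from group means correlated at 0.61, 0.23 and 0.70 between arrays of equal replicate number. Each exceeded the criterion of 0.1, so the block by replicate number was kept as an alternative, although no label says what equal numbers share. Knockdown replicate 2 correlated more with control replicate 1, at 0.44, than with control replicate 2, so the criterion does not settle the pairing. Alternatives were the replicate block, quantile normalization, median centring, omission of the dimmest rows, another prior, array weights, averaged rows, all rows, and omission of arrays.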

Additional observations from a re-analysis of the deposited data

How the results depend on the processing

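The Zp3 difference was above 0 under all 15 alternatives, at 0.70 to 0.88, and past the threshold in 9, with adjusted p from 0.000797 with array weights to 0.172 without control replicate 2. With the replicate block the difference was 0.79 at adjusted p 0.0153, and with all rows tested it was 0.79 at adjusted p 0.0981, where adjustment ran over 35557 rows. Leaving out 1 array gave 0.70 to 0.87. None of the 7 other genes passed under any alternative (lowest adjusted p 0.108, over 101 values). With the dimmest rows left out, Zp2, Nobox, Bmp15 and Oosp1 were not tested. Signs turned for Zp2 at -0.09 without knockdown replicate 3 and -0.045 without both arrays numbered 3. They turned for Gdf9 at -0.15 with array weights, -0.14 without knockdown replicate 3 and -0.17 without both arrays numbered 3. They turned for Oosp1 at -0.045 with array weights, -0.05 without knockdown replicate 3, -0.02 without control replicate 3 and -0.085 without both arrays numbered 3. Leaving out 1 array gave -0.09 to 0.175 for Zp2, -0.135 to 0.19 for Gdf9 and -0.05 to 0.065 for Oosp1.

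Over all named genes 48 were higher and 110 lower. The counts were 214 and 400 with the replicate block, 107 and 244 without the dimmest rows, 140 and 306 with the trended and robust prior, 652 and 981 with array weights and 2 and 10 with all rows tested. With median centring 29 were higher and without both arrays numbered 3 66 were lower. Leaving out 1 array gave 0 to 131 higher and 0 to 159 lower by limma, with 1510 to 2924 genes at an unadjusted p under 0.05. The causes were not tested. The array weights used limma's gene-by-gene estimator, chosen after seeing that its default did not converge. Of 450 list counts under the alternatives 83 moved, by more than 1.5 times or between 0 and another count. Many of these counts are 0 or 1, so a change of 1 gene is enough for a move. Signal over background was not analysed here, which limits what the dim genes can show.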
